A study of Mus musculus with 4 samples.

Results

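The genes described here are 10 members of the Toll-like receptor pathway, of 37310 genes in the count table: the receptors Tlr1, Tlr2, Tlr3, Tlr4 and Tlr6, the co-receptor Cd14, the adaptors Myd88 and Ticam1, the kinase Irak1 and the ubiquitin ligase Traf6. The set was selected on the measured rise of Tlr2 in these libraries, and the other 9 genes were added by family and role. The values of Tlr2 are therefore given as a description, with no test, and the question asked of the data is whether the other members followed it. RNA was sequenced from HATX mouse embryonic stem cells (mESCs), with 2 libraries of the wild-type (WT) line and 2 of a Spen knockout (KO) derivative, clone 2. Both groups carry a doxycycline-inducible Xist transgene and were grown in serum with LIF, a cytokine that keeps mESCs self-renewing, and the labels state no treatment. Cells of both groups are described as haploid. The KO group is 1 clone, and the extent of its Spen deletion is given both as full and as the majority of the gene. Nothing states that the 2 libraries of a group came from separate cultures, so each p-value measures only the spread between these libraries.

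Toll-like receptors are innate immune receptors that recognise microbial products. Tlr2 pairs with Tlr1 or Tlr6 to bind bacterial lipoproteins, Tlr4 binds lipopolysaccharide with the help of Cd14, and Tlr3 binds double-stranded RNA inside endosomes. Most receptors signal through Myd88, the Irak kinases and Traf6 to NF-kappaB and MAP kinases, while Tlr3 uses Ticam1, and mESCs are known for weak responses to microbial ligands.

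The 4 libraries held 36667685 to 61908422 counts, and the KO-labelled libraries were the deeper ones. Spen, the targeted gene, was not lower in the KO-labelled pair: its normalized counts (counts divided by a size factor that corrects for depth) stood at 3716 and 3047 in WT against 7797 and 6242 there. These counts cover the whole gene and do not show whether the deleted part was read, so they do not check the deletion, and every direction below refers to libraries by their labels. The 8 mESC markers, which include Pou5f1 and Nanog, summed to between 221982 and 240985 normalized counts in every library. Of these 8 markers, Dppa5a (log2 fold change of 0.28, adjusted p of 0.000177, DESeq2) and Zfp42 (0.23, 0.0149) were higher in the KO-labelled pair, and the other 6 did not pass the test. Both calls are uncertain, since 77.8% of the exonic stretches of 32 bases in Dppa5a and 45% in Zfp42 occur elsewhere in the genome. The median gene on chromosome 9, which holds Dppa5a, was at 0.13, and on chromosome 8, which holds Zfp42, at 0.10. Neither call was repeated with these medians removed or with a library left out.

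Sequence is shown first for Tlr2 and Tlr3, because these were the only ones among the 8 members with a RefSeq promoter in which a match to the kappaB consensus, the motif of NF-kappaB factors, was found. Each promoter covers 250 bases before to 50 bases after the annotated start, in GRCm38.p6, and both lie on the minus strand. Capitals mark the kappaB matches.
Tlr2 promoter, chr3:83841559-83841858, minus strand: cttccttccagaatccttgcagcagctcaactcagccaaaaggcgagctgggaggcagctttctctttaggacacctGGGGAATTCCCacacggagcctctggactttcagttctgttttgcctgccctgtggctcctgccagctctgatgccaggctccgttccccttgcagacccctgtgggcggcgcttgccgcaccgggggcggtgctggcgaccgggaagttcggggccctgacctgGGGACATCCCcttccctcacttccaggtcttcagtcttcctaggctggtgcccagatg
Tlr3 promoter, chr8:45410331-45410630, minus strand: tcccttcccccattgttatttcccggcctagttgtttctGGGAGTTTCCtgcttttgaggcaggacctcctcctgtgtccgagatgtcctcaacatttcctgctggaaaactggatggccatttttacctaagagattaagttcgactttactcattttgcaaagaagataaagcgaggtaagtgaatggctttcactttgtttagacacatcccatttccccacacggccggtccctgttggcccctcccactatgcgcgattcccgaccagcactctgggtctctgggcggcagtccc

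The Tlr2 promoter held 3 kappaB matches on either strand, from -173 to -164, from -172 to -163 and from -8 to 2 relative to the start, and the first and second overlap each other. They also overlap a match to the RBPJ motif GTGGGAA, which lies on the other strand from -167 to -161. RBPJ is the DNA-binding factor of Notch signalling. The Tlr2 promoter also held GC boxes (GGGCGG) starting at -69 and -48. A kappaB match was present in 4.51% of all 32851 promoters of this length, an RBPJ motif in 6.38% and a GC box in 35.7%. The STAT motif TTCNNNGAA (8.3% of promoters), the octamer ATGCAAAT (1.74%), the TATA box TATAAA (13.6%) and the CCAAT box (37.4%) were searched on both strands as well and had no match in the Tlr2 window. The Tlr3 promoter held 1 kappaB match, from -211 to -202, and a GC box starting at 38. These matches describe letters in a window and do not show that a factor binds there. The RefSeq start of Tlr2 lies 159 bases downstream of the 5′ end of the gene model used for counting.

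Tlr2 was far higher in the KO-labelled libraries, which is the value the set was chosen by. The gene lies on the minus strand of chr3:83640195-83645689 (mm9, the build of the count table) and has 3013 exonic bases. In raw counts it stood at 116 and 146 in WT and at 788 and 995 in the KO-labelled pair. Its normalized counts were 153.8 and 159.0 in WT, a mean of 156 ± 3.68 (SD, n = 2), against 686 and 779 in the KO-labelled libraries, a mean of 732 ± 65.4 (SD, n = 2). Both KO-labelled libraries lay well above both WT libraries, and the ratio of the means was 4.68. Its log2 fold change, given as KO-labelled minus WT throughout, was 2.23 ± 0.19 (SE). None of its exonic stretches of 32 bases had a copy elsewhere in the genome, and no annotated gene overlaps it. Since RNA was taken from whole cultures, more Tlr2 RNA per cell and more cells with Tlr2 RNA cannot be told apart.

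The partners with which Tlr2 forms heterodimers were nearly absent. Tlr1 had 3 counts in KO-labelled replicate 2 and 0 in the other 3 libraries. Tlr6 had 2 counts in replicate 1 of each group and 0 in replicate 2 of each. Neither gene exceeded 3 counts in any library, so no fold is given, and a difference could not be detected at this depth. A count of 0 allows up to 3 counts, which is a depth-scaled level (CPM) of 0.0818 in the shallowest library and 0.0485 in the deepest, for counting error only. Among values from 1 to 10 in the table, 66.6% were even, and if both mates of a pair were counted these limits would be higher by a factor of 2. These genes are neighbours on chromosome 5, at chr5:65316050-65324000 for Tlr1 and chr5:65344345-65351287 for Tlr6 (mm9, minus strand), and 23.2% and 23.4% of their exonic stretches of 32 bases occur elsewhere. The longest run they share is 229 bases. It is shown because read pairs with both 75-base mates inside it cannot be assigned to one of them by sequence, and the handling of such pairs was not stated.

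Tlr1 (chr5:65316776-65317004, mm9) and Tlr6 (chr5:65345067-65345295, mm9), both on the minus strand: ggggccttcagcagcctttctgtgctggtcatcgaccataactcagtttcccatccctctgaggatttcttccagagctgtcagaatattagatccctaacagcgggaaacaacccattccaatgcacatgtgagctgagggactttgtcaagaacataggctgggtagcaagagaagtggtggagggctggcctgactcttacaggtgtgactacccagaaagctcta

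Over the whole genes, 340 stretches of 75 bases in Tlr1 also occurred in Tlr6, and neither gene shares a stretch of 32 bases with Tlr2. Tlr4, the lipopolysaccharide receptor at chr4:66488618-66591318, had 2 counts in WT replicate 2 and 0 elsewhere, so it too was at or under 3 counts in every library.

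Tlr3 was measured at a low level and did not pass the test. It lies on the minus strand of chr8:46481019-46495962 (mm9). It had 8 and 14 raw counts in WT and 28 and 16 in the KO-labelled pair, and its normalized counts of 10.6 and 15.2 in WT overlapped with 24.4 and 12.5 in the KO-labelled libraries. The estimated difference was 0.50 ± 0.87 (log2 fold change, SE), its 95% interval ran from -1.19 to 2.20 and its adjusted p was 0.726 (DESeq2 Wald test, Benjamini-Hochberg over all genes tested). The interval holds a 2-fold change in either direction. Without KO-labelled replicate 1 the value was -0.04, so its sign rested on that library.

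Cd14, the membrane co-receptor that hands ligands to Tlr4 and Tlr2, was also low. Raw counts of 24 and 29 were found in WT and of 36 and 22 in the KO-labelled pair. On the normalized scale it stood at 31.8 and 31.6 in WT and at 31.3 and 17.2 in the KO-labelled libraries, where only replicate 2 was clearly lower. Its log2 fold change was -0.39 ± 0.65 (SE), with a 95% interval from -1.66 to 0.88 and an adjusted p of 0.718. It was -0.01 without KO-labelled replicate 2 and -0.87 without KO-labelled replicate 1. The gene lies at chr18:36884728-36886390 (mm9, minus strand).

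**Figure D1:**
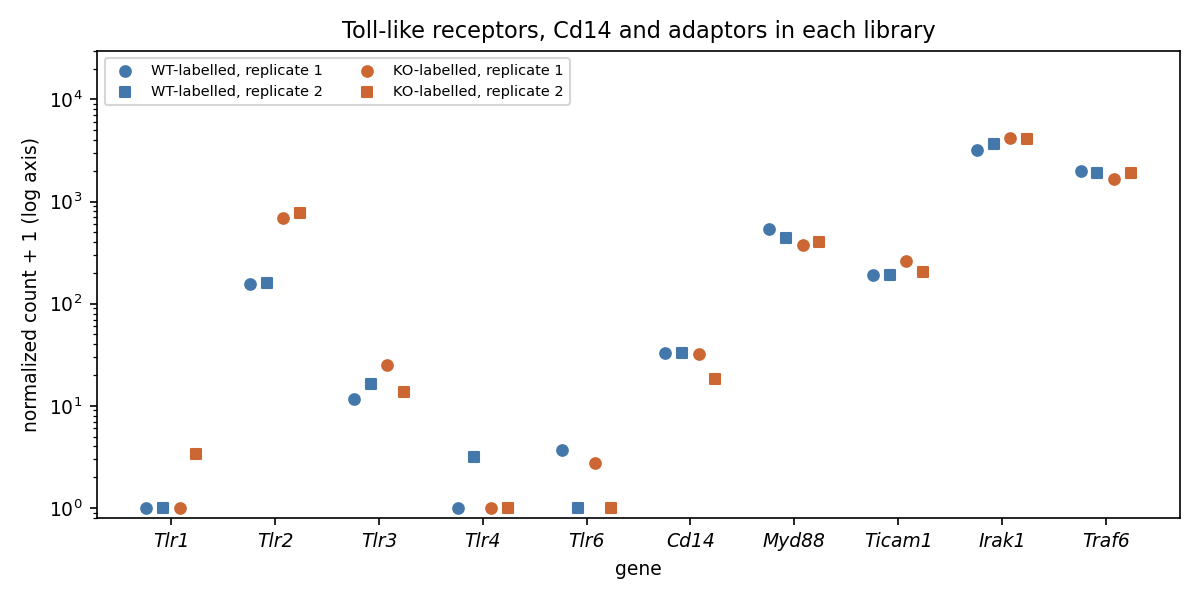
Normalized count plus 1 (log axis) of the 10 members in each of the 4 libraries, with 1 point per library and no averaging. The points of Tlr2 form separate pairs at 153.8 and 159.0 (WT) and at 686 and 779 (KO-labelled), whereas Tlr1, Tlr4 and Tlr6 stay at or under 3 raw counts and the 4 signalling genes on the right keep similar levels in both groups.

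The signalling genes downstream of the receptors were expressed in all libraries and their groups differed by less than 2-fold. Myd88, the adaptor of nearly all these receptors, lies at chr9:119245052-119250529 (mm9, minus strand). Its raw counts were 403 and 404 in WT and 435 and 515 in the KO-labelled libraries, but after the correction for depth both KO-labelled libraries lay below both WT libraries, at 379 and 403 against 534 and 440. The estimated log2 fold change of -0.32 ± 0.18 (SE) had a 95% interval from -0.67 to 0.03 and an adjusted p of 0.179, and without WT replicate 1 it was -0.17 (adjusted p of 0.726). Genes of chromosome 9 had a median log2 fold change of 0.13, and with chromosome medians removed the value for Myd88 was -0.45 with an adjusted p of 0.044, which passed the threshold of 0.05. Myd88 shares 67 exonic bases with Acaa1a on the other strand, and the strand setting of the counting was not stated.

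Ticam1, the adaptor that Tlr3 uses, was at 189.6 and 189.5 normalized counts in WT and at 261 and 205 in the KO-labelled libraries. Both KO-labelled libraries lay above WT, by different amounts. The log2 fold change of 0.30 ± 0.25 (SE) had a 95% interval from -0.19 to 0.78 and an adjusted p of 0.406. It was 0.12 without KO-labelled replicate 1 and 0.47 without KO-labelled replicate 2. The gene lies at chr17:56408742-56416209 (mm9, minus strand) and has no overlapping gene.

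Irak1, the kinase recruited by Myd88, was the one tested member that passed, Tlr2 being left out of the tests. Its normalized counts were 3197 and 3699 in WT and 4154 and 4091 in the KO-labelled libraries, so all 4 libraries were high and the KO-labelled pair stood 1.20-fold above WT in the mean. Its log2 fold change of 0.26 ± 0.09 (SE) came with a 95% interval from 0.08 to 0.44 and an adjusted p of 0.0183. With the replicate number added to the DESeq2 model as a block, the value was 0.26 and the adjusted p 0.0954, so it did not pass. The call was lost without WT replicate 1 (0.16, adjusted p of 0.348), without KO-labelled replicate 1 (0.25, 0.16) and without KO-labelled replicate 2 (0.27, 0.137), and it remained without WT replicate 2 (adjusted p of 0.00989). Irak1 lies at chrX:71259253-71269257 (mm9, minus strand) and shares 141 exonic bases with AL672002.1 and Mir718 on its own strand, so part of its count may belong to them.

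Traf6, the ubiquitin ligase downstream of Irak1, was at 1979 and 1914 normalized counts in WT and at 1647 and 1909 in the KO-labelled libraries. KO-labelled replicate 2 was almost level with WT replicate 2. Its difference of -0.13 ± 0.11 (log2 fold change, SE) came with a 95% interval from -0.34 to 0.08 and an adjusted p of 0.401, and was -0.02 without KO-labelled replicate 1, -0.24 without KO-labelled replicate 2 and -0.24 with chromosome medians removed. Traf6 lies at chr2:101518586-101541826 (mm9, plus strand).

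Of the 9 members other than Tlr2, 3 could not be tested, 1 of the remaining 6 was higher at an adjusted p under 0.05 and 0 were lower, at that threshold as at an unadjusted p under 0.05 and with edgeR. By comparison, 16.4% of the 17710 genes tested were higher and 15.8% were lower at the adjusted threshold. None of the 6 reached the study's threshold of a 2-fold change at an adjusted p under 0.001, which 1.36% of all genes passed upward and 3.15% downward. Their median log2 fold change was 0.06, beside 0.005 for all genes tested. With normalized counts, 2 of the 6 had both KO-labelled libraries above both WT libraries, 3 had both below and 1 overlapped, against 35.4% above and 34.8% below among all genes tested. The 95% intervals of Myd88, Ticam1, Irak1 and Traf6 stayed within a 2-fold change either way, while those of Tlr3 and Cd14 did not.

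**Figure D2:**
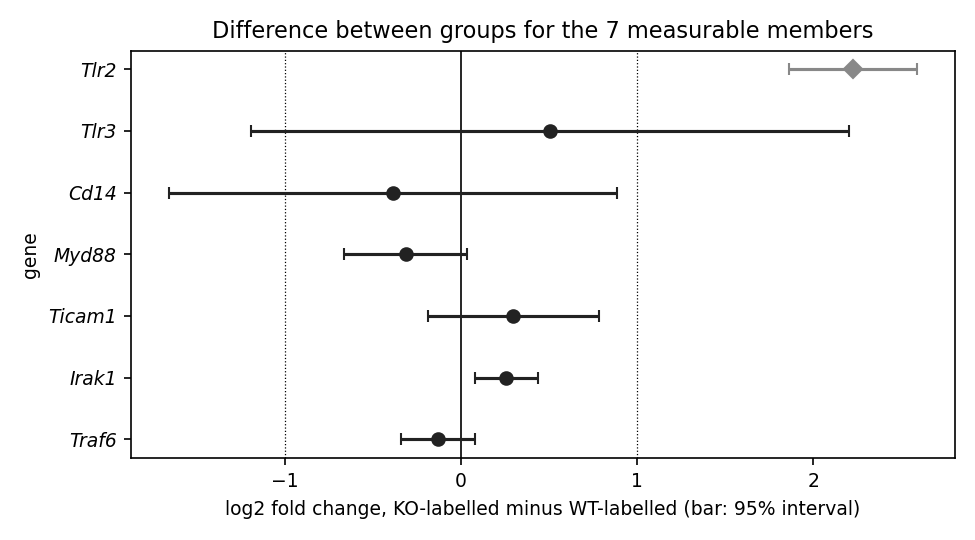
Log2 fold change (KO-labelled minus WT, DESeq2) of the 7 members with more than 3 counts in some library, with bars for the 95% interval and dotted lines at a 2-fold change. Tlr2, drawn as a grey diamond because it chose the set, lies at 2.23, while the other 6 lie between -0.39 and 0.50 and the intervals of Tlr3 and Cd14 are the widest.

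Levels can be compared between genes per length, as counts per kilobase of exon scaled to the library total (RPKM). Among the 10 members, Irak1 had the highest RPKM in every library, at 13.9 and 16.4 in WT and 18.5 and 17.9 in the KO-labelled libraries. In WT it was followed by Traf6 at 5.13 ± 0.05 and Myd88 at 3.92 ± 0.49 (SD, n = 2), and then by Ticam1 at 1.32 ± 0.02 and Tlr2 at 1.08 ± 0.04. Cd14 stood at 0.419 ± 0.003 RPKM in WT and Tlr3 at 0.0611 ± 0.0163. In the KO-labelled libraries Tlr2, at 5.06 ± 0.39 RPKM, was level with Traf6 at 4.69 ± 0.43 within their spread and above Myd88 at 3.16 ± 0.10, so it stood above both adaptors there and below both in WT.

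The 7 receptors of the family that are not members included one that was lower in the KO-labelled libraries. Tlr5, the receptor for bacterial flagellin, had 68 and 78 raw counts in WT and 20 and 22 in the KO-labelled libraries. Its normalized counts were 90.2 and 84.9 against 17.4 and 17.2, so both KO-labelled libraries lay far below WT. The log2 fold change of -2.34 ± 0.49 (SE) had an adjusted p of 1.57e-05 and passed the test without each library in turn, with adjusted p-values from 0.00544 to 0.0192. Tlr7 had 0 to 6 counts per library, Tlr9 and Tlr13 had at most 2, and Tlr8, Tlr11 and Tlr12, which in the mouse recognise microbial RNA or protein, had 0 counts in all libraries. Tlr2 made up 62.7% and 63.4% of the summed RPKM of the 12 Toll-like receptor genes in WT and Tlr5 31.4% and 29.0%. In the KO-labelled libraries Tlr2 made up 94.8% and 96.2%, and Tlr5 2.06% and 1.82%.

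**Figure D3:**
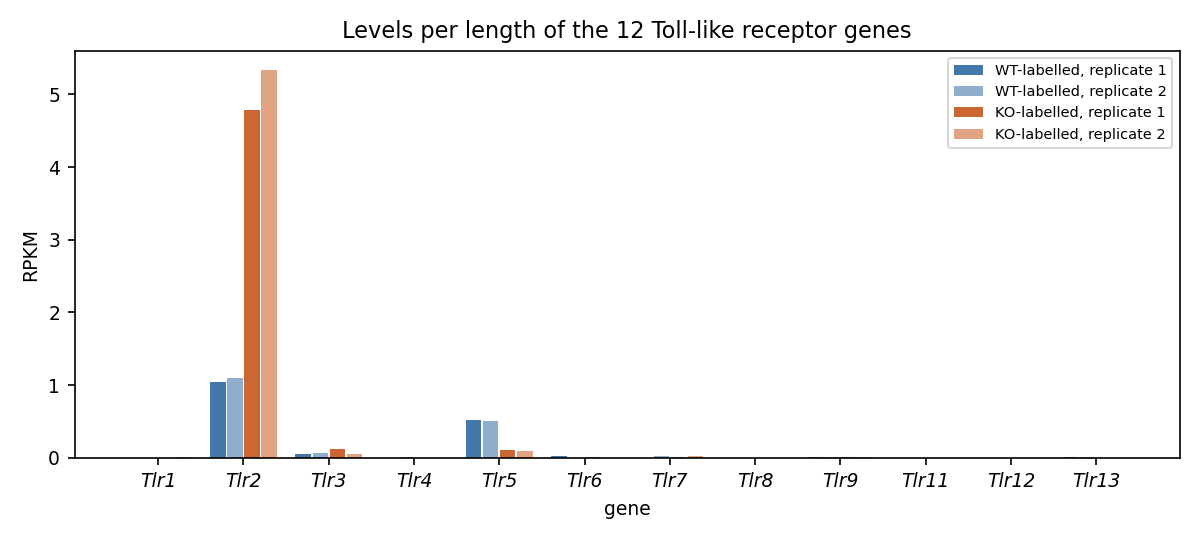
RPKM of the 12 Toll-like receptor genes in each library, with 1 bar per library starting at 0. The bars of Tlr2 stand at 1.05 and 1.11 (WT) and at 4.78 and 5.33 (KO-labelled), those of Tlr5 at 0.526 and 0.505 and then at 0.104 and 0.101, and the next highest is Tlr3, with 0.116 in KO-labelled replicate 1.

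The other genes of the pathway were read from 9 lists with 95 genes, by role, and 16 of these genes had at most 3 counts in every library. Of the 66 genes tested, 11 (16.7%) were higher and 12 (18.2%) were lower, close to the 16.4% and 15.8% of all genes tested, against which the counts per list below are also to be read. Their median log2 fold change was -0.05. Co-receptors and receptor chaperones had 0 of 6 tested genes higher and 2 lower with DESeq2, and 1 higher with edgeR or at an unadjusted p under 0.05. The 2 lower genes were Hsp90b1, the chaperone that folds Toll-like receptors (-0.46 ± 0.07 SE, adjusted p of 1.26e-10), and Cnpy3, its co-chaperone (-0.31 ± 0.11, 0.0117). The call of Cnpy3 was lost without any 1 of the 4 libraries (-0.37 to -0.25, adjusted p of 0.0644 to 0.253). Ly96, the Tlr4 partner MD-2, had 8 to 22 counts per library.

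Among adaptors, IRAK and RIP kinases, 1 of 9 tested genes was higher and 2 were lower. Pik3ap1, the adaptor that links receptors to PI3 kinase, rose from 35.8 and 31.6 normalized counts in WT to 94.0 and 90.8 in the KO-labelled libraries (1.46 ± 0.44, adjusted p of 0.00421). Ticam2, the bridging adaptor between Tlr4 and Ticam1, was at 107 and 96.9 in WT and fell to 38.3 and 54.0 (-1.14 ± 0.40, adjusted p of 0.0177). Both calls were lost without any 1 library, with adjusted p-values of 0.05 to 0.137 for Pik3ap1 and of 0.0669 to 0.262 for Ticam2, and Ticam2 overlaps Tmed7 on the same strand. Irak3, an IRAK relative that restrains signalling, fell from 1427 and 1479 normalized counts to 859 and 891 (-0.73 ± 0.12, adjusted p of 3.14e-09), and it passed without each library in turn. The remaining 6 did not pass.

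Of 10 ubiquitin ligases and TAK1 complex genes, all tested, only Traf3 passed with DESeq2, downward (-0.36 ± 0.10, adjusted p of 0.00144), and it remained called without KO-labelled replicate 2 (0.0351) but not without WT replicate 1 (0.066), WT replicate 2 (0.057) or KO-labelled replicate 1 (0.101). edgeR called 2 genes of this list lower and 0 higher. Traf3 is the ligase of the interferon branch. Among the 13 genes of the list of IKK, TBK1 and MAP kinases and their partners, 3 were higher and 1 was lower with DESeq2. With edgeR or at an unadjusted p under 0.05, 3 were higher and 2 lower. The IKK catalytic subunits Chuk (0.45 ± 0.08, adjusted p of 4.67e-08) and Ikbkb (0.32 ± 0.11, 0.0106) and the JNK kinase Map2k7 (0.34 ± 0.08, 0.000311) rose, and the p38 kinase Mapk14 fell (-0.25 ± 0.07, 0.00355). The call of Ikbkb was lost without WT replicate 2 (0.217), KO-labelled replicate 1 (0.155) or KO-labelled replicate 2 (0.125). That of Mapk14 was lost without WT replicate 1 (0.0542), WT replicate 2 (0.11) or KO-labelled replicate 1 (0.145).

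The IRF transcription factors had 2 of 5 genes higher and 0 lower with DESeq2, 0 lower at an unadjusted p under 0.05 and 1 lower with edgeR. Irf5, which acts with Myd88 in leukocytes, was at 102 and 111 normalized counts in WT and at 241 and 207 in the KO-labelled libraries (1.07 ± 0.28, adjusted p of 0.000598), and its call was lost without KO-labelled replicate 1 (0.97, 0.101). Irf1 was 1.31-fold higher (0.38 ± 0.11, 0.00266), and its call was lost without WT replicate 1 (0.0771) or KO-labelled replicate 2 (0.175). Negative regulators had 2 of 11 higher and 2 lower, and edgeR called 4 higher. Rnf216, a ligase that targets Toll-like receptors, rose (0.68 ± 0.08, 8.14e-16), as did the phosphatase Ptpn6 (0.43 ± 0.13, 0.00603), while the MAP kinase phosphatase Dusp1 (-0.76 ± 0.11, 1.6e-10) and the A20-binding protein Tnip1 (-0.61 ± 0.11, 1.53e-07) fell. The call of Ptpn6 was lost without WT replicate 1 (0.209), KO-labelled replicate 1 (0.1) or KO-labelled replicate 2 (0.119). Of the interleukin-1 family receptors, which share Myd88, 0 of 3 tested passed with DESeq2 in either direction, and 0 with edgeR or at an unadjusted p under 0.05.

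Genes known to be induced by Toll-like receptors split in both directions, with 3 of 8 tested genes higher and 3 lower with DESeq2. With edgeR or at an unadjusted p under 0.05, 4 were higher and 3 lower. Ptgs2, the prostaglandin enzyme, fell from 63.6 and 94.7 normalized counts in WT to 6.97 and 19.6 in the KO-labelled libraries (-2.57 ± 0.58, adjusted p of 7.94e-05). Nfkbiz, a nuclear NF-kappaB cofactor, fell from 172 and 190 to 86.2 and 84.5 (-1.09 ± 0.30, 0.00139). The adhesion molecule Icam1 rose from 2384 and 2359 to 4051 and 4018 (0.77 ± 0.08, 2.14e-18), and it passed without each library in turn. Ier3 rose slightly (0.49 ± 0.19, 0.0388), and the other 2 that passed, named after their values were seen, were Nfkbia (0.41) and Sod2 (-0.28). The value of Ptgs2 was -3.51 without KO-labelled replicate 2 and -2.01 without KO-labelled replicate 1, and its call was lost without WT replicate 2 (-2.25, 0.0838). That of Nfkbiz was lost without WT replicate 2 (0.116), KO-labelled replicate 1 (0.054) or KO-labelled replicate 2 (0.0582), and that of Ier3 without any 1 library (0.151 to 0.342). Among the cytokine and chemokine genes of the list, Il1a was the one tested, with 12 and 9 counts in WT and 7 and 22 in the KO-labelled pair (adjusted p of 0.946). Cxcl10 had 2 and 1 counts against 9 and 7, and the rest, Tnf and Il6 among them, had at most 4 counts in any library.

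**Figure D4:**
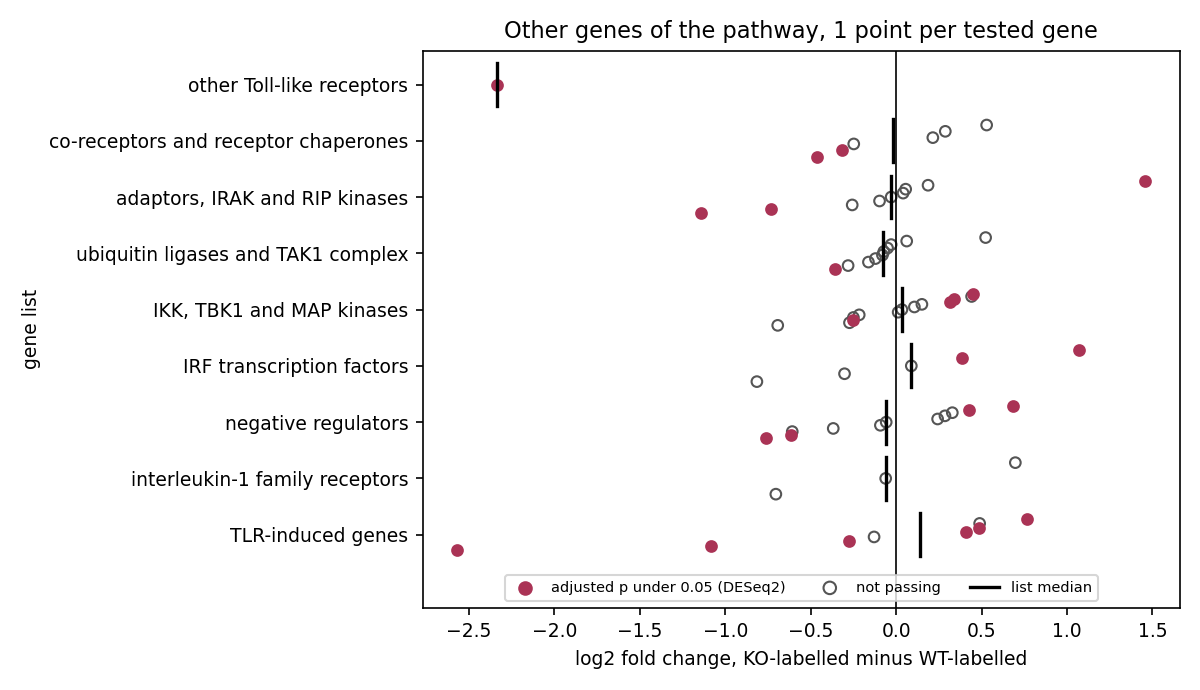
Log2 fold change (KO-labelled minus WT) of each tested gene of the 9 pathway lists, with filled points for genes at an adjusted p under 0.05 (DESeq2), open points for the rest and a bar at each list's median. Filled points lie on both sides of 0, and the medians of the 8 lists with more than 1 tested gene lie between -0.08 and 0.14 with all 4 libraries, a range that did not hold when each library was left out.

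The median log2 fold change differed between chromosomes, from -0.35 for chromosome 10 to 0.38 for chromosome 19. When these medians were removed, 8 of 21 list genes named above, a count that leaves out Nfkbia and Sod2, were no longer called. They were Hsp90b1 (-0.12, adjusted p of 0.197), Cnpy3 (-0.18, 0.217), Pik3ap1 (1.08, 0.0565), Traf3 (-0.04, 0.839), Chuk (0.07, 0.575), Ikbkb (0.21, 0.123), Mapk14 (-0.11, 0.271) and Irf1 (0.22, 0.134). Irak3, on chromosome 10, still passed, but its log2 fold change of -0.73 became -0.39 (0.00464). Hsp90b1 lies on chromosome 10 and Pik3ap1 and Chuk on chromosome 19. Tlr2 lies on chromosome 3, whose median was 0.09. Of the named list genes, Irak3, Irf1, Irf5, Ptpn6 and Icam1 share exonic bases with an annotated gene on the other strand and Hsp90b1, Ticam2 and Map2k7 with one on their own strand, so their counts are uncertain to that extent.

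The nearest measured neighbours of Tlr2 were also higher in the KO-labelled libraries, by less. Sfrp2, a secreted Wnt modulator 62.0 kb away, had 138 and 163 normalized counts in WT and 250 and 220 in the KO-labelled libraries (0.64 ± 0.26 SE, adjusted p of 0.0402). Without any 1 library the value stayed between 0.53 and 0.77 but the call was lost (adjusted p of 0.133 to 0.356), as it was with chromosome medians removed (0.55, 0.0994), with the replicate block (0.64, 0.139) and with counts halved (0.64, 0.106). D930015E06Rik, 56.4 kb away on the other side, had 1415 and 1392 against 2008 and 1963 (0.50 ± 0.10, adjusted p of 6.09e-06). Of the 8 other genes within 500 kb of Tlr2, 4 had a mean normalized count of at least 20, and their log2 fold changes ran from 0.19 to 0.64. Among all genes tested, 16.4% were higher at an adjusted p under 0.05. Both KO-labelled libraries lay above both WT libraries for 35.4% of all genes tested.

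The genes whose pattern over the 4 libraries lay closest to that of Tlr2 were Frem2, Gm216, Slc11a1, Tgfbi and B3galnt1. Likeness was the Euclidean distance between centred log2(normalized count + 1) values, 0.143 for Frem2 and 0.283 for B3galnt1, among 13305 genes with a mean of at least 50. Frem2, an extracellular matrix protein, had 847 and 959 normalized counts in WT and 4321 and 4603 in the KO-labelled libraries. Slc11a1, a metal transporter of phagocytes, had 66.3 and 78.4 against 354 and 383. With 4 libraries in 2 groups, such a match says mainly that the fold was similar.

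Tlr2 and Cd14 are also expressed by leukocytes, so leukocyte markers were read in the same libraries. Of 12 markers, 5 had at most 3 counts in every library. Ptprc, the pan-leukocyte antigen CD45, had 2 counts in KO-labelled replicate 1 and 0 elsewhere, and Emr1, Lyz2, Aif1 and Cd53 were as low. The summed normalized counts of the list were 3340 and 3789 in WT and 2564 and 2360 in the KO-labelled libraries. Most of that sum was Laptm5, which was lower in the KO-labelled libraries (-0.82 ± 0.10, adjusted p of 1.33e-14), whereas Itgam (2.45 ± 0.40, 1.51e-08) and Cd68 (0.55 ± 0.18, 0.0102) were higher. The call of Cd68 was lost without any 1 library (0.0827 to 0.235), with chromosome medians removed (0.104) and with the replicate block (0.068). Itgam, the integrin chain CD11b, had 23.9 and 30.5 normalized counts in WT and 155 and 144 in the KO-labelled pair. The summed normalized counts of 8 fibroblast markers were 215 and 220 in WT and 435 and 509 in the KO-labelled libraries. Thy1 (1.59 ± 0.23, 1.62e-10) gave most of that sum and was the one that passed with DESeq2, while edgeR called 2 higher and 0 lower. The log2 fold change was 0.98 for Col1a1 (adjusted p of 0.188) but -1.20 for Col1a2 (0.452), -0.91 for Pdgfra (0.33) and -0.25 for Col3a1 (0.898). The summed normalized counts of 7 primitive endoderm markers were 13075 and 13048 in WT and 20077 and 19701 in the KO-labelled libraries. Nearly all came from Sparc (0.65 ± 0.06, 6.35e-22), while Gata4 (-1.13 ± 0.31, 0.0014) and Sox7 (-1.45 ± 0.32, 4.53e-05) were lower. The call of Gata4 was lost without WT replicate 2 (-0.97) or KO-labelled replicate 2 (-1.08). With edgeR, 1 marker of this list was higher and 3 were lower. The part of these shifts in the value of Tlr2 was not tested.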

How the data were processed

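RNA was sequenced in 2 WT and 2 KO-labelled libraries, grouped by their titles. Stranded libraries were made after removal of ribosomal RNA, and the authors mapped paired 75-base reads to mm9 with STAR and counted them over GENCODE vM1 genes using featureCounts. What they deposited is 1 table of raw counts per gene, without normalization. Versions, strand setting and handling of reads with several matches are not given in the sources used here. The labels name a NextSeq and the methods a HiSeq. Of 22379 values from 1 to 10, 66.6% were even, which may mean that both mates of a pair were counted.

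Totals were 36667685 and 43835004 counts in WT and 54715889 and 61908422 in the KO-labelled libraries, and 11918 genes had no count. The main test was that of DESeq2 1.42.0 (R 4.3.3) on group (Wald, default size factors and filtering, Benjamini-Hochberg). edgeR 4.0.16 (quasi-likelihood), TMM and upper-quartile factors, a low-count filter (10 counts in 2 libraries), a replicate block, removal of chromosome medians and leaving out each library were alternatives. In counts simulated for this comparison, DESeq2 tested 18820 genes. It recovered 71% of the 2-fold and 96% of the 4-fold changes put in, and called 0.0967% of the other genes. These rates are not split by count level, so they give no power for low genes such as Tlr3 and Cd14. RPKM used exonic length and total counts. Promoters came from RefSeq (GRCm38.p6) and other positions from GENCODE vM1 on mm9.

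The members, lists and tests were chosen with earlier results of these data known. Named genes were every member, up to 4 genes per list at an adjusted p under 0.05 and a mean normalized count of 20 or more (largest change first), Spen, the nearest gene of that mean on each side of Tlr2, and the 5 genes with the pattern most like that of Tlr2. Other names (genes near 0, Nfkbia, Sod2 and markers) were added after their values were seen and are not among the 21 list genes tallied. Replicates of a group differed by more than sampling noise (chi-square per degree of freedom of 29.1 for WT and 11.7 for KO), so none was counted as a duplicate.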

Additional observations from a re-analysis of the deposited data

How the results depend on the processing

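Low depth limits Tlr1, Tlr4, Tlr6, Tlr3 and Cd14, and 2 libraries per group limit every error. Across the other settings the log2 fold change of Tlr2 ran from 2.13 to 2.27, and from 2.14 to 2.32 when each library was left out. The number of members higher, 2, counts Irak1 and Tlr2, whose place in it follows from the choice of members and supports nothing; it was 1 with the replicate block and 1 to 2 when each library was left out, Irak1 being the one lost, and the number lower, 0 with DESeq2, was 1 with chromosome medians removed (Myd88), 0 with edgeR and 0 without each library in turn. Genes higher at an adjusted p under 0.05 numbered 2909, 1857 with the replicate block, and 1563 to 1815 without 1 library. Genes lower numbered 2805 and 1572 to 1737 without 1 library. At the 2-fold threshold, 241 genes were higher and 558 lower, against 137 to 185 and 332 to 404 without 1 library. Without 1 library a group has 1 sample, which is assumed to vary like the other group. Same-numbered libraries did not deviate together (correlation of -0.02 over 13306 genes). Whether they shared a batch is not stated, and this value cannot decide it. Irak1 was 0.26 on the log2 scale with the replicate block, at an adjusted p of 0.0954. The log2 fold change of Tlr3 ran from -0.042 to 0.914 without 1 library. Of the 21 list genes named, 21 were called by edgeR and under both other scalings and the filter, 16 with the block (not Cnpy3, Ticam2, Ikbkb, Mapk14 or Ier3), 19 with counts halved (not Ticam2 or Ier3), 13 with chromosome medians removed and 9 without each library in turn. List medians rest on few genes: without 1 library that of the negative regulators (-0.06) was 0.03 to 0.18, of the interleukin-1 family receptors (-0.06) -0.63 to -0.08, of the TLR-induced genes (0.14) 0.33 to 0.46 and of the co-receptors and chaperones (-0.02) -0.35 to 0.05. With counts halved and rounded, chosen after seeing the even values, Irak1 still passed and Cd14, Myd88, Ticam1 and Traf6 still did not, while Tlr3 had no adjusted p. The causes of these changes were not tested.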
